A study of Homo sapiens with 28 samples.

Results

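Chromatin accessibility at ST14, TIFAB, AC005351.1 and SH3RF2 was examined in myeloma cell lines with and without lenalidomide. The 4 loci were chosen by the change in accessibility after the drug, as loci whose regions had gained most, so their response is described here and not tested. All regions whose nearest transcription start in the deposited annotation carried one of the 4 symbols were taken, promoter and distal alike. This gave 39 of 154985 regions in the deposited count table, 14 for ST14, 5 for TIFAB, 3 for AC005351.1 and 17 for SH3RF2. Of these, 31 were distal and 8 lay within 2500 bp of a start.

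ATAC-seq, in which a transposase cuts open chromatin and leaves sequencing adapters behind, was performed on 22 lines of malignant plasma cells without treatment. In 6 of them, Karpas620, KMS27, L363, MM1S, OPM2 and RPMI8226, a second library was made on day 3 of 10 µM lenalidomide. The other 16 lines had an untreated library alone. Each line was assayed once per condition, in culture, so a line stands for itself and the 6 lines were the replicates of the drug comparison. KMS12BM and KMS12PE were established from the same patient and are not independent of each other. Accessibility is given as CPM, counts per 1000000 counts in all regions of the library, and the share of cells that were open cannot be told apart from the degree of opening per cell.

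Lenalidomide binds cereblon, the substrate receptor of a ubiquitin ligase, and directs the lymphoid transcription factors Ikaros (IKZF1) and Aiolos (IKZF3) to degradation. ST14 encodes matriptase, a membrane-anchored serine protease best known from epithelia, which is held in check by the Kunitz inhibitors SPINT1 and SPINT2. TIFAB is a relative of the adaptor TIFA and dampens signalling through TRAF6, a ubiquitin ligase upstream of NF-κB, in blood cells. SH3RF2 belongs to a family of SH3-domain proteins with RING fingers that scaffold or restrain JNK signalling, and AC005351.1 is a processed pseudogene within an SH3RF2 intron.

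Library totals were 1599857 to 5564534 counts in untreated libraries and 2168680 to 4248017 after lenalidomide. The RPMI8226 pair was the least balanced, with 2117764 counts untreated and 4248017 treated. The start regions of the 7 plasma cell markers summed to 210.2 to 273.9 CPM in the 6 untreated libraries and to 197.5 to 287.7 CPM after the drug, and 6 of the 7 had a peak at the start in 18 to 22 of the 22 lines. The exception was SLAMF7, with a peak in 2 lines and a median of 5.125 CPM. Markers of other cell types had lower sums, over fewer genes. Not all of their regions lay at a start, the nearest to CD2 and LYZ being at 9690 and -16794 bp. Peaks were called there in 10 of the 22 lines for CD2, 9 for EPCAM, 8 for LYZ and 6 for KRT8. The other markers with regions had peaks in 1 to 3 lines. The 3 T cell markers summed to 7.65 to 26.71 CPM untreated and 10.36 to 44.21 CPM treated, and the region nearest CD2, a T cell adhesion receptor, rose (log2 change 1.16, adjusted p = 0.00363 with edgeR). The 3 epithelial markers summed to 4.12 to 21.59 CPM untreated and 1.452 to 28.48 CPM treated, and 2 regions of CDH1 (E-cadherin) rose by 0.50 and 0.64 on the log2 scale (edgeR adjusted p = 0.0395 and 0.02), calls that DESeq2 did not make and that were both lost without KMS27 or OPM2. Myeloid sums were 5.738 to 21.97 and 3.228 to 24.32 CPM, and those of MS4A1 and PAX5, the B cell markers with regions, 2.087 to 38.45 and 0.9222 to 37.63 CPM. Their part in the results below was not tested.

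At 3 of the loci a single distal region carried the change, and these regions are shown as the central 300 bases in GRCh37. ST14 (ENSG00000149418) lies on the plus strand of chromosome 11 from 130029677 to 130080257, and its region spans 130048326 to 130048963, in an intron. The TIFAB gene (ENSG00000255833) lies on the minus strand of chromosome 5 from 134779916 to 134788041. Its region, 134791951 to 134792533, lies upstream of the gene in an intron of the long noncoding RNA ENSG00000249639. AC005351.1 (ENSG00000248493, chromosome 5, 145376781 to 145377566) is the nearest start to a region at 145396321 to 145397199, which lies in an intron of SH3RF2. SH3RF2 itself (ENSG00000156463, plus strand of chromosome 5, 145316141 to 145461354) had its highest change at 145426913 to 145427502, which overlaps an SH3RF2 exon and lies 2125 bp from an internal start. For contrast, the ST14 and TIFAB regions with the highest mean in untreated lines are given, where little changed. Capitals mark matches to motifs on either strand.
ST14 intronic region, chr11:130048495-130048794, plus strand: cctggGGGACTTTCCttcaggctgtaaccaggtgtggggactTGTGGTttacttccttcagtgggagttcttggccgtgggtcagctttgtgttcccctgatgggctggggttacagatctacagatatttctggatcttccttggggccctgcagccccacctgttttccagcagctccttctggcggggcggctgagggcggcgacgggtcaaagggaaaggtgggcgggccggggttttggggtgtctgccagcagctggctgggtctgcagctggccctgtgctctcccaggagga
Region upstream of TIFAB, chr5:134792093-134792392, plus strand: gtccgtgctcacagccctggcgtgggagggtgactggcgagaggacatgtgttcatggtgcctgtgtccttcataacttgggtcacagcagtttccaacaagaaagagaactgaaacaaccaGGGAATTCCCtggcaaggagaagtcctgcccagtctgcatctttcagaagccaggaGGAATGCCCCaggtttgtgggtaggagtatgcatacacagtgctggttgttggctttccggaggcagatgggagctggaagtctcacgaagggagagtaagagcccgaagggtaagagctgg
Region nearest AC005351.1, chr5:145396611-145396910, plus strand: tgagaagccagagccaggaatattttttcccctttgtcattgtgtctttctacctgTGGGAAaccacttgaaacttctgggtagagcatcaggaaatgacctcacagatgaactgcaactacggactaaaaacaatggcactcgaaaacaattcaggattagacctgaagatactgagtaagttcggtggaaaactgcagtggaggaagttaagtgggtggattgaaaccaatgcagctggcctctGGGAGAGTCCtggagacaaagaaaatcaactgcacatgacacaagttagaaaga
SH3RF2 internal region, chr5:145427058-145427357, plus strand: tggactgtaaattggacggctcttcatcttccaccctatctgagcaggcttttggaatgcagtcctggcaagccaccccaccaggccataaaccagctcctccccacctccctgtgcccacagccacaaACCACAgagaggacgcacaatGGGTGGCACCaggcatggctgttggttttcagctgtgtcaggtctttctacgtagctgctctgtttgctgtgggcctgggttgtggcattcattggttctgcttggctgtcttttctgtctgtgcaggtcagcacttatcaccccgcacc
Tallest ST14 region, little changed, chr11:130051439-130051738, plus strand: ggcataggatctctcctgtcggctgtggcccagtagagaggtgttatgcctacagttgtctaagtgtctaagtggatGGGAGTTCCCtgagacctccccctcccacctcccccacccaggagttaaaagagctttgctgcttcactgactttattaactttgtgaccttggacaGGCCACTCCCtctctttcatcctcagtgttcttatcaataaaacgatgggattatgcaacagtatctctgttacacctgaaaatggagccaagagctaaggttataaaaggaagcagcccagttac
Tallest TIFAB region, little changed, chr5:134797999-134798298, plus strand: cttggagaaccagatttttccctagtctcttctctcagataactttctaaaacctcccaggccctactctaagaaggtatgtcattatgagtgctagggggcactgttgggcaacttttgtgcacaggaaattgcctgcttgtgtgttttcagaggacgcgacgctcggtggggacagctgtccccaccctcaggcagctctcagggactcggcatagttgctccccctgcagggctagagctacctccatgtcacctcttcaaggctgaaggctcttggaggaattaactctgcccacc

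The motifs searched, on both strands and by exact letters, were AP-1 TGANTCA, Ikaros TGGGAA, RUNX TGTGGT, and the ETS-IRF, interferon, STAT and NF-κB elements. The NF-κB pattern was GGG and CC with any 5 bases between. The ST14 intronic region held an NF-κB match, GGGACTTTCC, and a RUNX match. The region upstream of TIFAB held the palindromic NF-κB match GGGAATTCCC and another on the minus strand. The region nearest AC005351.1 held an Ikaros and an NF-κB match, and the SH3RF2 region held a RUNX match on the minus strand and an NF-κB match. No match to AP-1, ETS-IRF, the interferon element or STAT lay in these windows, and no matches to different motifs overlapped there. The NF-κB pattern is loose, since 40.8% of all 300-base windows held it, against 21.3% for Ikaros, 30.2% for RUNX, 15.2% for AP-1, 9.6% for the interferon element, 8.73% for STAT and 5.11% for ETS-IRF. The tallest ST14 region, which changed little, also held NF-κB matches, and the tallest TIFAB region held no match to any of the 7 patterns. The exact strings were less common. GGGACTTTCC was in 0.378% of all windows and GGGAATTCCC in 0.172%, and both strings were looked up because they had been seen in these regions. Outside the central window, the full ST14, TIFAB and SH3RF2 regions each held an AP-1 match, a pattern found in 24.2%, 22.9% and 23.1% of windows of their lengths, and that of AC005351.1 held none. The full ST14 region also held overlapping Ikaros and STAT matches, the SH3RF2 region an interferon element and the AC005351.1 region a RUNX match, and all 4 held further NF-κB matches. GC content was 59.2% in the ST14 region, 54.4% in the TIFAB region and 46.3% in the AC005351.1 region, beside a median of 46.9% over all regions.

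The ST14 intronic region was higher after lenalidomide in all 6 lines. In untreated cells it had 1.735 CPM in Karpas620, 1.012 in KMS27, 13.77 in L363, 3.09 in MM1S, 3.652 in OPM2 and 5.194 in RPMI8226. After lenalidomide the values were 3.13, 12.31, 83.46, 25.41, 59.23 and 13.18 CPM in the same order. L363 and OPM2 reached the highest levels and Karpas620 moved least. The treated and untreated groups overlapped, since untreated L363 was above treated Karpas620, KMS27 and RPMI8226. The treated L363 value came from 181 counts (95% Wilson interval 72.16 to 96.54 CPM) and the untreated one from 27 counts (9.464 to 20.03 CPM), a 6.06-fold difference. OPM2 differed by 16.2-fold and MM1S by 8.22-fold. The fitted log2 change over the 6 pairs was 2.70 ± 0.25 (SE), rank 3 among the 37732 regions tested. A peak had been called there in 1 of 6 untreated libraries, L363, and in 5 of 6 treated ones.

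The region upstream of TIFAB was nearly closed without the drug. Untreated values were 0.3469 CPM in Karpas620, 1.012 in KMS27, 1.02 in L363, 1.716 in MM1S, 0.5217 in OPM2 and 7.555 in RPMI8226, which in the first 5 lines are 1 to 5 counts. After lenalidomide they were 3.521, 13.68, 4.611, 5.444, 11.76 and 25.89 CPM. RPMI8226 was highest in both states, and its untreated level exceeded the treated level of Karpas620, L363 and MM1S. The difference in RPMI8226, from 16 to 110 counts, was 3.43-fold by CPM. The fitted log2 change was 2.48 ± 0.32 (SE), rank 6. No untreated library had a peak there and 3 of the 6 treated ones did, KMS27, OPM2 and RPMI8226. Without RPMI8226 the region no longer passed the low-count filter and had no fitted value.

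The region nearest AC005351.1, within SH3RF2, gained the most in L363. Its untreated levels were 1.735 CPM in Karpas620, 1.349 in KMS27, 1.53 in L363, 6.523 in MM1S, 3.13 in OPM2 and 3.305 in RPMI8226, and the treated levels were 9.39, 6.499, 53.03, 30.49, 18.54 and 7.062 CPM. All 6 lines were higher with the drug, although the untreated level of MM1S was above the treated level of KMS27. In L363 the counts went from 3 (0.5203 to 4.499 CPM) to 115 (44.18 to 63.65 CPM), and this change ranked 3 among all tested regions within L363. The fitted log2 change was 2.63 ± 0.29 (SE), rank 4. Peaks were called in 0 of 6 untreated and all 6 treated libraries.

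SH3RF2's own regions responded less. At the internal region, untreated levels were 2.428 CPM in Karpas620, 0.6746 in KMS27, 0.51 in L363, 5.149 in MM1S, 7.825 in OPM2 and 23.61 in RPMI8226, and treated levels were 6.26, 1.71, 7.839, 13.43, 14.92 and 21.42 CPM. Here 5 lines were higher and RPMI8226 was not. The fitted log2 change was 0.91 ± 0.28 (SE), rank 997, and it passed the threshold in the fit of all 6 lines but not with DESeq2 or when any line other than RPMI8226 was left out. The larger change within the SH3RF2 gene body was at the region counted to AC005351.1, and no distal region counted to SH3RF2 passed the low-count filter.

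**Figure D1:**
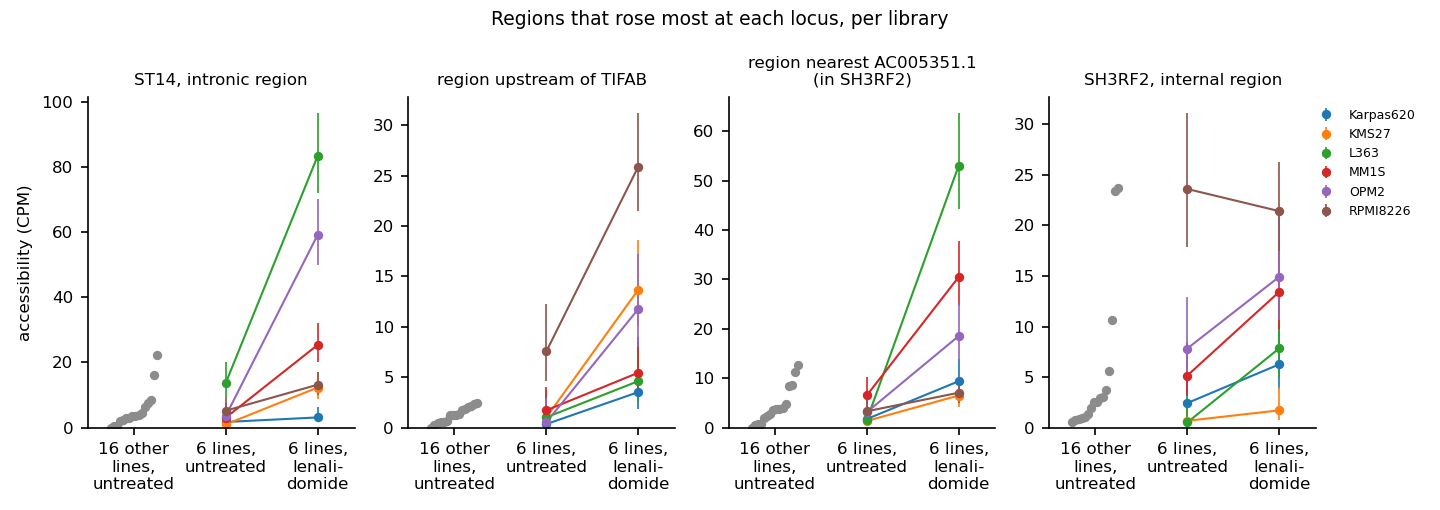
Accessibility in CPM at the region that rose most at each locus, for the 16 other untreated lines (grey) and for 6 lines without and with lenalidomide, joined by line, with 95% Wilson intervals. Treated L363 stands at 83.46 CPM at ST14 and 53.03 CPM near AC005351.1, treated RPMI8226 at 25.89 CPM near TIFAB.

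The untreated lines placed these levels in context. Across 22 untreated lines the ST14 intronic region ran from 0 to 22.14 CPM (KMS12PE) with a median of 3.595, and only L363 had a peak. Peak calls did not follow the level there, since KMS12PE and KMS21BM (16.07 CPM) stood above L363 (13.77 CPM). The TIFAB region ran from 0 to 7.555 CPM with a median of 1.253 and had no peak in any untreated line, and among the 16 lines never treated its highest value was 2.46 CPM. The region nearest AC005351.1 ran from 0 to 12.68 CPM (KMS20), median 3.218, with peaks in KMS20, KMS34 and H1112. At each of these 3 regions, 3 of the 6 treated libraries were above every one of the 22 untreated libraries, which held for 1.09% of the regions tested. The loci were chosen by their levels in these treated libraries, so nothing is read from that count. The lines differed by region. L363, MM1S and OPM2 exceeded the untreated range at ST14 and near AC005351.1, and KMS27, OPM2 and RPMI8226 did so near TIFAB. The SH3RF2 internal region behaved otherwise, since untreated KMS11, RPMI8226 and PCM6 already had 23.43 to 23.71 CPM and no treated library exceeded them.

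Among the tested regions of ST14 and TIFAB the change was narrow, and at the other loci too few regions were tested to tell. Of the 39 regions, 13 passed the filter on low counts, 7 for ST14, 4 for TIFAB and 1 each for the other loci, and 26 were too low to test. In an edgeR fit of the 6 pairs, 4 of the 13 were raised and none lowered, with 4.17% of all 37732 tested regions raised. The rule that chose the loci used this contrast, so nothing is read from that count. DESeq2 raised 3 of them, with 1.91% raised among all regions. Of the 13, 3 were higher in all 6 lines, against 4.97% of the regions tested, and none had all treated libraries above all untreated ones, against 0.0822%. The other 9 regions that passed had fitted log2 changes between -0.34 and 0.33. The median over the 13 was 0.20, beside -0.01 over all regions tested.

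The ST14 promoter, which overlaps the annotated start, had 1.043 to 19.08 CPM untreated and 2.736 to 14.09 CPM treated, and a fitted log2 change of -0.01. Karpas620 was the most open line there in both states. The tallest ST14 region, 2184 bp downstream of the intronic region, changed by 0.20 on the fitted log2 scale. Its levels were 56.89 CPM in Karpas620, 15.18 in KMS27, 11.73 in L363, 36.05 in MM1S, 5.738 in OPM2 and 42.03 in RPMI8226 without the drug. With the drug they were 54.38, 17.1, 22.59, 28.67, 20.35 and 40.49 CPM. L363 and OPM2, the lowest lines, were higher after treatment, and in the other 4 lines the ratio of treated to untreated was 0.7955 to 1.127. The TIFAB region with the highest mean had a fitted log2 change of -0.14, and the nearest neighbour of the upstream region, 586 bp away, one of 0.30. Among the regions too low to test, the mean changes in log2(CPM + 1) over 6 lines ran from -0.52 to 0.78. The highest of them was a region at 130049413 to 130049633 in ST14, with 0 to 2.833 CPM untreated and 0 to 4.611 CPM treated.

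**Figure D2:**
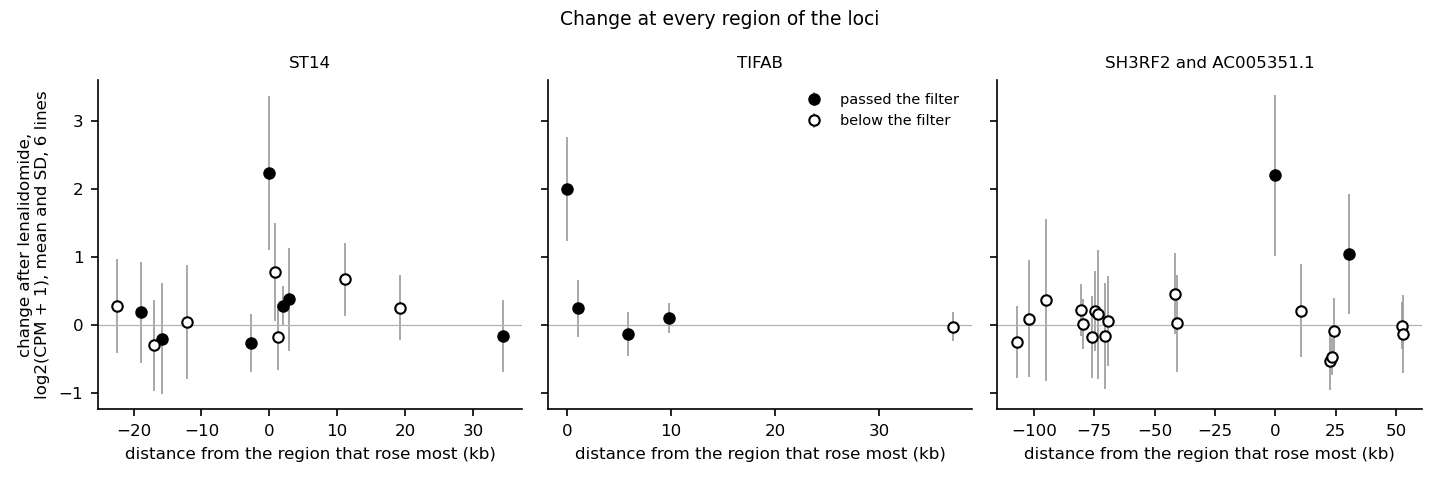
Change after lenalidomide in log2(CPM + 1), mean and SD over 6 lines, at all 39 regions against the distance in kb from the region that rose most, filled where the region passed the low-count filter. The ST14, TIFAB and AC005351.1 regions at 0 kb stand at 2.24, 2.01 and 2.21, and the others between -0.52 and 1.05.

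Summed over all regions of a locus, the gains were smaller. ST14 went from 119.0 to 102.1 CPM in Karpas620, 38.79 to 55.41 in KMS27, 62.73 to 160.9 in L363, 121.9 to 102.0 in MM1S, 49.56 to 121.2 in OPM2 and 101.0 to 120.1 in RPMI8226. The summed locus was thus higher in 4 of 6 lines, with a mean change of 0.48 ± 0.70 (SD, n = 6) in log2(CPM + 1). In MM1S the intronic region was 8.22-fold higher while the rest of the locus went from 118.8 to 76.59 CPM. TIFAB was higher in 6 of 6 lines, by 0.56 ± 0.35 (SD, n = 6), from 12.52–31.64 CPM untreated to 21.52–48.02 CPM treated. The 3 AC005351.1 regions were higher in 6 of 6 lines as well, by 1.49 ± 0.94 (SD, n = 6), with the smallest change in RPMI8226 (28.8 to 37.9 CPM) and the largest in L363 (5.1 to 54.41 CPM). SH3RF2 changed by 0.28 ± 0.31 (SD, n = 6) and was higher in 5 of 6 lines. Without the region that rose most, the means were 0.09 ± 0.46 for ST14, 0.06 ± 0.13 for TIFAB, 0.18 ± 0.66 for AC005351.1 and 0.05 ± 0.31 for SH3RF2 (SD, n = 6). All 4 were within the spread between lines. In the same order, these remainders were higher after the drug in 4, 4, 5 and 3 of 6 lines. The loci were chosen for their largest gains, so smaller remainders follow in part from that choice.

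Neighbouring genes were also examined. Within 500 kb on either side of the ST14 region, 22 other regions were tested and none passed the threshold in either direction. Next to ST14, the 3 tested regions of APLP2, a relative of the amyloid precursor, had log2 changes of -0.21 to 0.29, and that of the zinc finger gene ZBTB44 one of -0.21. Around the TIFAB region 16 others were tested, with 1 raised and 1 lowered, the raised one 91.48 kb away at CTC-321K16.1 (log2 change 1.10). Around the region nearest AC005351.1, 6 others were tested and the SH3RF2 internal region, 30.59 kb away, was the 1 raised.

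The lines did not respond alike at the 4 loci. Over all 1575 regions raised by the drug the median change in log2(CPM + 1) was 0.41 in RPMI8226 and 0.65 in Karpas620, and between 0.94 and 1.06 in the other 4 lines. Karpas620 had the smallest change at the ST14 intronic region (0.59) yet 1.75 near TIFAB and 1.93 near AC005351.1. OPM2 had the largest change at ST14 (3.70) and near TIFAB (3.07), and L363 near AC005351.1 (4.42).

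Baseline accessibility of the loci varied widely among the 22 untreated lines. CPM was not corrected for DNA copy number, so differences between lines in copies of a locus cannot be told apart from differences in opening. ST14 summed to 18.17 CPM in KMS34 (95% Wilson interval 13.45 to 24.57), 71.03 at the median and 241.7 in KMS12BM (226.6 to 257.8), a 13.3-fold range. KMS12BM was followed by KMS12PE at 180.2 CPM (167.4 to 193.9) and OCIMY5 at 127.6 CPM (116.2 to 140.2), and the intervals of these 3 lines did not overlap. Below them, neighbours in the order overlapped except RPMI8226 (101.0) and H1112 (79.79). KMS12BM and KMS12PE, highest for ST14, were lowest for TIFAB, at 6.311 and 10.18 CPM, in an order that ran to 22.63 CPM at the median and 44.38 CPM in PE1. No 2 neighbours in the TIFAB order had separate intervals. KMS34, lowest for ST14, came next after PE1 for TIFAB at 38.08 CPM.

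AC005351.1 ranged from 0.8201 CPM in U266 (3 counts, 0.2789 to 2.411) through 8.15 at the median to 37.92 in H1112 (33.14 to 43.39), again with every pair of neighbours overlapping. SH3RF2 ranged from 9.294 CPM in U266 through 29.51 to 153.0 in PCM6 (137.3 to 170.4). PCM6 stood clear of RPMI8226 (85.0, 73.45 to 98.35), had the highest level of all lines at 7 of the 17 SH3RF2 regions, and reached 19.99 CPM at the start region, where the median was 0.5853. Scaled by length, the median accessibility was 11.46 CPM per kb for ST14, 10.03 for TIFAB, 5.143 for SH3RF2 and 4.188 for AC005351.1.

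**Figure D3:**
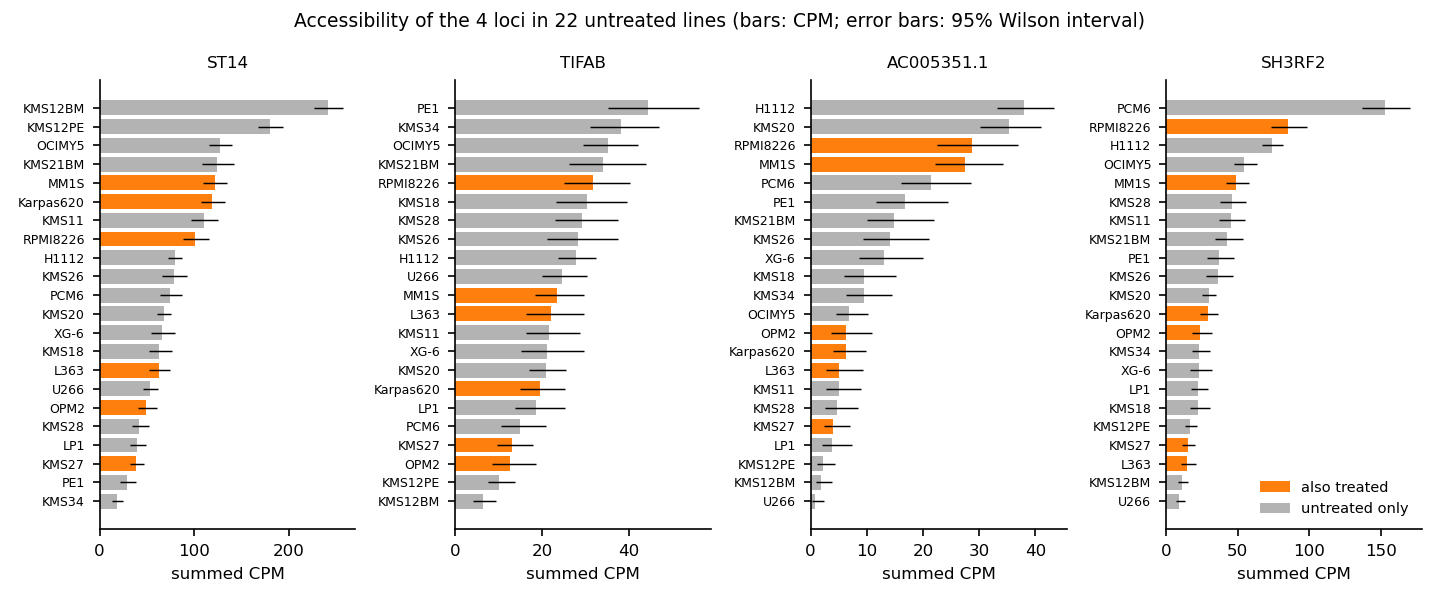
Summed CPM of each locus in the 22 untreated lines with 95% Wilson intervals (counting error only), ordered within a locus, with the 6 lines that were also treated in orange. KMS12BM leads ST14 at 241.7 CPM and is last for TIFAB at 6.311 CPM, and PCM6 leads SH3RF2 at 153.0 CPM.

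Within the loci, few regions were open in most lines. A peak was called in 10 or more of the 22 lines at 4 of the 39 regions. These were the ST14 region at 130082720 to 130083438, past the annotated end of the gene, and the tallest TIFAB region (18 lines each), an intronic ST14 region at 130045705 to 130046193 (14 lines) and the tallest ST14 region (12 lines). At 7 regions no untreated line had a peak, the one upstream of TIFAB among them, and 16 regions had a median under 1 CPM, 11 of them at SH3RF2. The ST14 promoter had a peak in 3 lines, with a median of 4.336 CPM. No TIFAB region lay within 2500 bp of its start, and AC005351.1 had none either.

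Whether distal or promoter regions were the more open was tested for ST14 and SH3RF2 in the 16 lines never treated, whose libraries had no part in choosing the loci. The regions themselves were drawn from the peaks of all libraries, treated ones included. All promoter regions had a peak in at least 1 of the 16 lines, whereas 2 of the 11 distal ST14 regions and 4 of the 12 distal SH3RF2 regions had none. CPM was summed over the regions of each kind and divided by their summed length, and medians and ranges are over lines. At ST14 the 11 distal regions together had a median of 12.51 CPM per kb (3.329 to 41.63) and the 3 promoter regions 5.624 (0.6101 to 25.2). Distal was higher in 15 of 16 lines, by a mean of 1.22 ± 1.06 (SD, n = 16) in log2(CPM per kb + 0.1) (two-sided exact sign-flip permutation test, p = 0.000122, adjusted over the 2 loci p = 0.000244). This holds for the sum and not for every distal region. Over the 22 untreated lines, single distal ST14 regions had medians of 2.215 to 17.12 CPM per kb, and the region at the start 7.799. At SH3RF2 the 12 distal regions had a median of 4.884 CPM per kb (1.194 to 20.42) and the 5 promoter regions 6.111 (2.52 to 39.84). The mean difference was -0.42 ± 0.74 (SD, n = 16), with distal higher in 7 of 16 lines (exact sign-flip permutation test, p = 0.0386, adjusted p = 0.0386). That call was lost without KMS12PE (exact permutation p = 0.0735) or without PCM6 (exact permutation p = 0.0693). With only the regions that had a peak in the 16 lines it was -0.17 (exact permutation p = 0.4), while ST14 gave 1.42 (exact permutation p = 6.1e-05). The SH3RF2 difference reversed to 0.97 in log2(CPM + 1) for the tallest distal region against the start region, higher in 13 of 16 lines (exact permutation p = 0.00772). That distal region, at 145326008 to 145326463, was picked for its mean in these same 16 lines, which favours the distal side. With promoters limited to 1000 bp the difference was 0.70 (exact permutation p = 0.175). No direction is therefore drawn for SH3RF2.

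**Figure D4:**
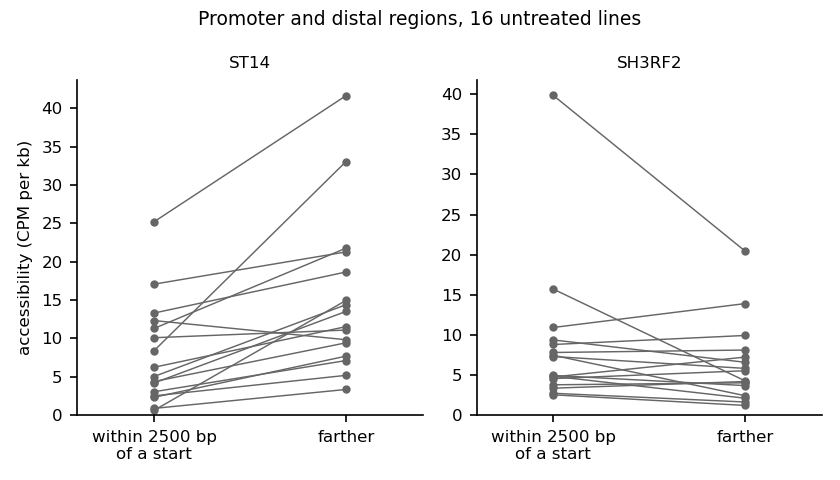
Accessibility in CPM per kb, summed over the regions within 2500 bp of a start and over those farther away, in the 16 untreated lines with no treated library, 1 line per cell line. At ST14, 15 of 16 lines slope upward to the distal side, and at SH3RF2 7 of 16 do.

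As a description over the 22 untreated lines, AC005351.1 and SH3RF2, which share a stretch of chromosome 5, had a Pearson correlation of 0.726 (Spearman 0.706) in log2 of summed CPM + 1. ST14 and TIFAB had -0.43 (Spearman -0.18). Among 27637 symbols, those on other chromosomes most like ST14 were the chemokine receptor pseudogene CCR12P (r = 0.784), RP11-63P12.6 (0.775) and AC005071.1 (0.769). For TIFAB they were INHBB, which encodes an inhibin and activin subunit (0.844), AC067945.3 (0.832) and BEAN1 (0.817). For AC005351.1 they were LRRTM3 (0.795), RN7SKP45 (0.787) and RPL7P26 (0.785), and for SH3RF2 RP11-345L23.1 (0.845), LINC00908 (0.841) and SNRPGP9 (0.806). The points share the depth and quality of their library and are not corrected for DNA copy number. The highest of so many correlations are high by selection.

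Genes that act with the 4 were followed in lists of pathway members, by the same edgeR fit and adjusted over all regions tested, of which 5.4% changed. Of the matriptase list of inhibitors, substrates and relatives, 3 of 19 tested regions rose (15.8%) and none fell. SPINT1, the cognate inhibitor of matriptase, rose at a region 2606 bp from its start (log2 change 1.17 ± 0.26 (SE), adjusted p = 0.00458, higher in 6 of 6 lines). HGF, the growth factor whose precursor matriptase can cleave, rose at a region upstream of a start (-5590 bp), by 1.48 ± 0.30 (SE, edgeR adjusted p = 0.00149, 5 of 6 lines). TMPRSS2, another membrane serine protease, rose at a region upstream of a start (-8779 bp), by 0.72 ± 0.20 (SE, edgeR adjusted p = 0.0237, 5 of 6 lines). The SPINT1 region was too low to test without Karpas620 or without RPMI8226, the HGF region without MM1S, and the TMPRSS2 call was lost without OPM2 or without RPMI8226.

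In the TIFA-TRAF6 list 2 of 20 tested regions rose (10.0%) and none fell. ALPK1, the kinase that senses bacterial sugars upstream of TIFA, rose at its start (log2 change 1.18 ± 0.24 (SE), adjusted p = 0.00142, 6 of 6 lines), and stayed past the threshold whichever line was left out. NFKB1, the p105 and p50 subunit of NF-κB, rose at a region 27040 bp from a start, by 0.59 ± 0.18 (SE, edgeR adjusted p = 0.0383, 5 of 6 lines). That call was lost without Karpas620, L363, MM1S or OPM2. In the SH3RF and JNK list 2 of 17 rose (11.8%) and none fell. MAP3K11, a kinase at the head of the JNK cascade, rose at its start (log2 change 0.74 ± 0.17 (SE), edgeR adjusted p = 0.00427, 6 of 6 lines). SH3RF1, a paralogue of SH3RF2, rose at a region upstream of a start (-21986 bp), by 0.86 ± 0.25 (SE, edgeR adjusted p = 0.0324, 5 of 6 lines). The SH3RF1 call held only without RPMI8226 among the fits with a line left out. In the cereblon list 1 of 18 rose (5.56%) and none fell. It was the start of IKZF1, the drug's own degradation target, at 0.79 ± 0.16 (SE, adjusted p = 0.00169, 6 of 6 lines). DESeq2 called 4 of these 8 regions, at HGF, ALPK1, MAP3K11 and IKZF1. The median log2 change over the tested regions of the lists was 0.06 for matriptase, 0.15 for TIFA-TRAF6, 0.09 for SH3RF and JNK and -0.03 for cereblon, beside -0.01 over all regions. IRAK1, IRAK4, TAB3, MAP2K4, MAP2K7, MAPK8IP2, CUL4B and ZFP91 were not analysed here.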

How the data were processed

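The authors aligned ATAC-seq reads to GRCh37 with Bowtie2 2.2.6, handled them with SAMtools 1.7, called peaks per library with MACS2 2.1.0.20151222 and merged the peaks into regions. They deposited raw counts per region, which were used here, and RPM values that equal CPM from those counts and were not used. A further deposited table was read as the number of a library's own peaks per region, a meaning the files leave undefined. Whether duplicates were removed, read ends shifted, or reads or fragments counted is not given in the sources used here.

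The loci and all lists were chosen with earlier results of these data known, the loci from the lenalidomide contrast itself. Lenalidomide and untreated libraries of 6 lines were compared with edgeR 4.0.16 (limma 3.58.1, R 4.3.3) using quasi-likelihood tests with the line as a blocking factor, TMM scaling, a low-count filter (filterByExpr, grouped by condition), and Benjamini-Hochberg adjustment at 0.05. Pairing is by cell line from the labels, and deviations of libraries correlated at 0.8245 to 0.8928 within lines and at most 0.1095 between lines. DESeq2 1.42.0 was an alternative. The scripts were tested on simulated data. Pseudocounts were 1 for CPM and 0.1 for CPM per kb. Promoter regions lie within 2500 bp of an annotated start. Sign-flip tests enumerated all sign patterns of 16 lines with scipy 1.17.1. The 95% Wilson intervals reflect counting error alone. Symbols and promoter classes came from the annotation deposited with the counts, and gene spans and overlaps from GENCODE on GRCh37. In GENCODE the start nearest the TIFAB regions at 134801807 and 134829228 was that of ENSG00000250167.

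Named were, per locus, the region nearest the start, up to 5 tested regions with the largest increase, and the region with the highest untreated mean. To these were added the 3 most alike symbols on other chromosomes with at least 5 CPM, the nearest symbol on each side and called list regions. Other regions singled out by their values, and the alternatives without the region that rose most, without KMS12PE, without PCM6 or with only regions that had a peak in the 16 lines, were chosen after the data were seen.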

Additional observations from a re-analysis of the deposited data

Results flagged for a closer look

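In 51 sets of 6 libraries, 4 had 1 library far from the other 5, where chance alone gives about 1 in 20. The untreated ST14 intronic region was highest in L363 at 13.77 CPM, with the next line at 5.194 CPM. RPMI8226 was the line apart in the others. It had 7.555 CPM untreated at the region upstream of TIFAB, with the next line at 1.716 CPM, and 23.61 CPM untreated at the SH3RF2 internal region, with the next at 7.825 CPM. Its treated TIFAB sum was 48.02 CPM, above 29.76 CPM in the next line.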

How the results depend on the processing

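The 3 distal regions at ST14, TIFAB and AC005351.1 passed the threshold under DESeq2, without TMM, with trended offsets and without the low-count filter. They also passed in every fit with a line left out in which they were tested. The loci were chosen from these same libraries, so passing under these settings is a description and not a test of the change. The SH3RF2 internal region passed only with trended offsets, without the filter and without RPMI8226. Over all regions, 2036 changed in the fit of 6 pairs, 834 with DESeq2, 4092 without the filter, 587 with at least 10 counts in each library, 0 without the block (edgeR, 440 at an unadjusted p below 0.05) and 1067 (without MM1S) to 2503 (without RPMI8226) with a line left out, with 1310 without KMS27. Of the regions of the 4 loci, 4 were raised, 3 with any line left out, 0 of 1 tested with at least 10 counts, and 0 without the replicate block, where the log2 changes of the 3 distal regions were 2.79, 2.43 and 2.78, about as large as with the pairing. Of the list regions, 8 changed, 4 with DESeq2, 13 without the filter, 4 with at least 10 counts, 0 without the block, and 5 (without MM1S or without OPM2) to 8 with a line left out.

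With a line left out, the mean locus changes ran from 0.31 to 0.63 for ST14 (lowest without L363), 0.47 to 0.64 for TIFAB, 1.15 to 1.71 for AC005351.1 and 0.20 to 0.37 for SH3RF2. Leaving out L363 or OPM2 moved the ST14 change to 0.31 or 0.32. The region that rose most carried the TIFAB and AC005351.1 changes, which were 0.064 and 0.18 without it, and SH3RF2 changed by 1.05 over its only region that passed the filter. The SH3RF2 contrast of distal and promoter regions reversed to 0.97 for the tallest distal region against the start region (exact permutation p = 0.00772) and to 0.70 with promoters within 1000 bp, and was no longer past the threshold without KMS12PE (-0.37), without PCM6 (-0.38) or with only regions that had a peak in the 16 lines (-0.17). The ST14 contrast was 1.02 to 1.84 under its 7 alternatives. The value of 1.84 was for the tallest distal region, picked for its mean in these same 16 lines, which favours the distal side. Untreated levels at the 3 distal regions rest on 1 to 27 counts, which limits their folds.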
